A study of Caenorhabditis elegans with 2 samples.

Results

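*acly-2*, *nduf-2.2* and *nxf-2* are 3 *Caenorhabditis elegans* genes that each have a paralog, *acly-1*, *gas-1* and *nxf-1*. These 6 genes, of 20191 counted, are described here as 3 pairs of a germline copy and its paralog. Members were taken by gene symbol, and all 6 were found. The germline copies were selected on measured values, since the study listed them among targets of the histone methyltransferase MES-4 that were higher in somatic clusters of these same mutant cells. Their levels are therefore given as a description, and the direction of the 3 copies in somatic cells is not independent evidence. The paralogs were added with results of these libraries known.

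Single cells were dissociated with chitinase from pooled embryos, enriched for those at the 100-200 cell stage. The 3' ends of polyadenylated transcripts were counted by unique molecular identifiers (UMIs), so that a UMI stands for 1 captured transcript. Wild Type was the N2 strain. The mutants carried the alleles *spr-5(b101)* on chromosome I and *met-2(n4256)* on chromosome III, and came from hand-picked double mutant mothers. There was 1 library per genotype, so nothing between the genotypes could be tested, and the intervals given (95%) cover counting error only.

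SPR-5 is a histone demethylase that removes a mark of transcribed genes and MET-2 a methyltransferase that adds a repressive mark, and together they reprogram histone methylation between generations. MES-4 marks the chromatin of genes that were transcribed in the parental germline. Gene duplication has left *C. elegans* with some housekeeping activities encoded by a general gene and also by a copy used in germ cells. Each pair was described for this reason, but whether a copy has the same biochemical function as its paralog was not tested.

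The cells taken were the 219 deepest Wild Type barcodes and the 686 deepest mutant barcodes, the numbers given in the sample titles, with 1013190 and 732058 UMIs and a median of 2086 and 726.5 UMIs per cell. More than 10000 UMIs were found on 18 Wild Type barcodes, which made up 48.6% of that library's cell UMIs, and on no mutant barcode. The libraries shared 11 cell barcodes. *spr-5* had 74 UMIs in Wild Type and 37 in mutant somatic cells, and *met-2* 62 and 20, but whether these 3' tags lie outside the altered parts of the genes was not tested, so they do not check the labels. Cells were clustered together, without the 6 genes or the other genes of the study's list, and 1 of 15 clusters was germline-like, with 8 of 9 germline markers enriched, among them *pgl-1*, *pgl-3*, *glh-1* and *gld-1*. None of these markers was among its 10 leading genes, which included the maternal mRNAs *pos-1*, *puf-3* and *cey-3*. It held 4 Wild Type and 21 mutant cells, and all other cells, 215 in Wild Type and 665 in the mutants, are called somatic. The somatic clusters were filled unevenly. The neuron-like one held 2 Wild Type and 64 mutant cells and the ciliated neuron-like one 1 and 31, while some unnamed clusters held more Wild Type cells. Differences in cell makeup or embryo stage cannot be told apart from genotype in ratios over all somatic cells. In the 4 Wild Type germline-like cells *nduf-2.2* was at 195 and *nxf-2* at 250 CPM (counts per 1000000 UMIs of the same cells), against 2.05 and 7.16 CPM in Wild Type somatic cells. *acly-2* was at 83.5 CPM (17.2 to 244) there, the same level as *acly-1*, and its interval overlaps that of Wild Type hypodermis-like cells, so the label of a germline copy could not be read for *acly-2*. The paralogs were also at higher point values in these 4 cells than in Wild Type somatic cells, *acly-1* at 83.5 and 26.6 CPM, *nxf-1* at 83.5 and 15.3 and *gas-1* at 167 and 111.5.

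In somatic cells all 3 germline copies were higher in *spr-5; met-2* mutants than in Wild Type, *acly-2* 4.0-fold, *nxf-2* 8.61-fold and *nduf-2.2* 22.6-fold, while *gas-1* was lower and the intervals of *acly-1* and *nxf-1* included 1. All 6 genes had at least 20 UMIs over both libraries. The 3 copies together went from 21.5 to 157 CPM (ratio 7.31, interval 4.56 to 12.27). Their 3 paralogs together went from 153 to 116 CPM (ratio 0.758, 0.573 to 0.998). Over all 6688 genes with at least 20 UMIs in both libraries together, 20.9% were more than 2-fold higher in the mutants and 5.5% more than 2-fold lower, 33.5% had an interval above 1 and 13.7% an interval below 1, and the median log2 ratio was 0.27. All 3 copies were more than 2-fold higher with an interval above 1, a count that the choice of the genes fixes. None of the 3 paralogs was past 2-fold as counted here, and *gas-1* alone had an interval that excluded 1. Other processing, or a part of the cells, moved *nxf-1* and *acly-1* past 2-fold. The *nxf-1* ratio was 3.19 (1.11 to 10.4), with an interval above 1, with UMIs pooled over the 5 somatic clusters that both genotypes filled, 2.26 with cells weighted equally, 2.16 with those clusters weighted equally and 2.03 without called doublets. The *acly-1* ratio was 0.475 without barcodes over 10000 UMIs, 0.420 with 500 UMIs drawn from each cell, and 0.449 and 0.443 with the 5 clusters weighted equally and pooled. In the somatic cells outside these 5 clusters the *nxf-1* ratio was 0.718 (0.210 to 2.26) and the *acly-1* ratio 0.943 (0.291 to 2.98). The drawn value of *acly-1* rests on 4 cells with a UMI in each genotype, and a second draw gave 3 in Wild Type and 5 in the mutants. Scaling by the median of ratios, which shifts log2 ratios by 0.26, moved the background to 1011 genes higher and 614 lower, from 1396 and 368, and left the copies at 3.34 (*acly-2*), 18.9 (*nduf-2.2*) and 7.2 (*nxf-2*).

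**Figure D1:**
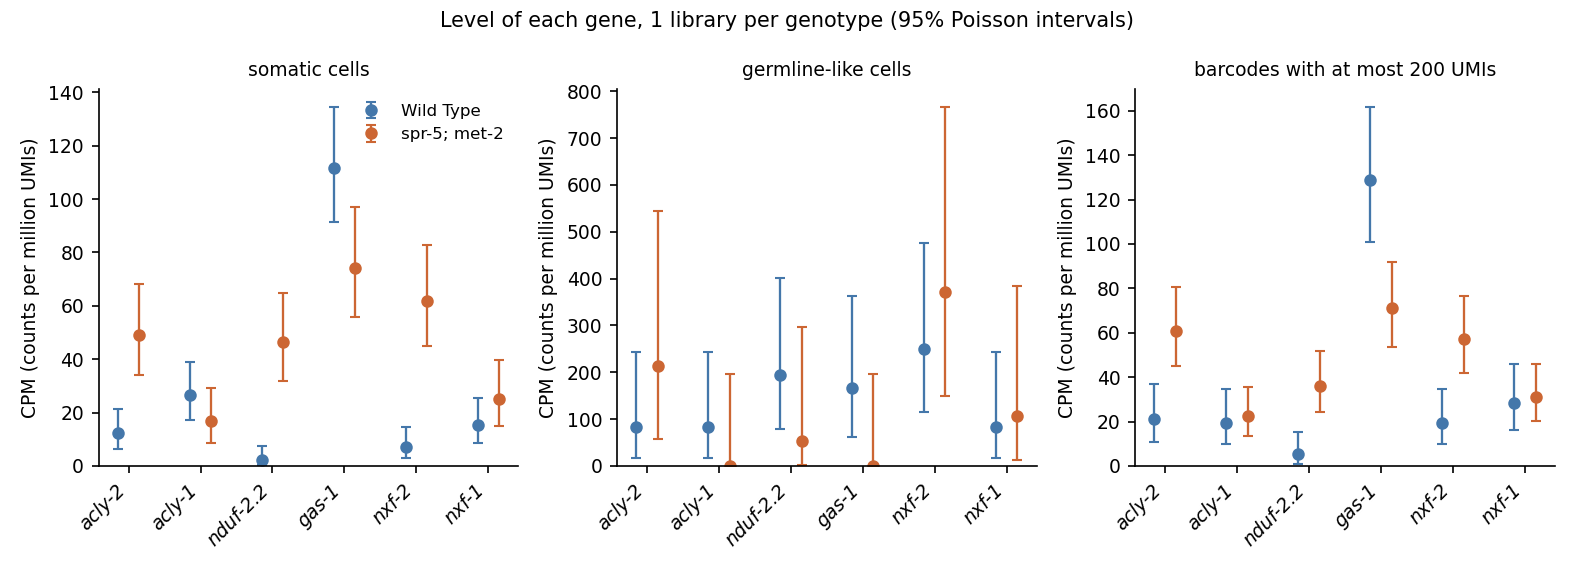
Level of each gene in CPM (vertical axis, linear, with a different range in each panel) in somatic cells, germline-like cells and barcodes with at most 200 UMIs, with 1 point per genotype and 95% Poisson intervals. In somatic cells the 3 germline copies span 2.05 to 12.28 CPM for Wild Type and 46.3 to 61.7 CPM for the mutants, and their intervals do not overlap between the genotypes. The copies were chosen as higher in these mutant cells, so this separation is not independent evidence. The share of all genes separated in this way was not computed.

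Of the 9 germline markers 6 were higher in the mutants' somatic cells by point value and 2 lower. Most genes with at least 20 UMIs were also higher by point value, with a median log2 ratio of 0.27, so this count does not set the markers apart. In Wild Type somatic cells 6 had a UMI and in the mutants 7, and their sum was 13 and 134 UMIs, or 13.3 and 188 CPM (ratio 14.1, 7.98 to 27.2). Most of this difference was the germ granule helicase *glh-1*, which gave 6 and 115 of these UMIs, and the other 8 markers summed to 7 and 19 UMIs (ratio 3.72, 1.497 to 10.47). In Wild Type *pgl-3*, *xnd-1* and *nos-1* were at 0, and in the mutants *nos-1* and also *gld-1*, which had a UMI in Wild Type. In free RNA the 9 markers summed to 54.6 and 168 CPM. The part of these markers' cells in the levels of the 3 copies was not tested.

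RNA outside cells carried the copies at similar levels. Barcodes with at most 200 UMIs, which mostly hold free RNA, were 11662 in Wild Type and 8742 in the mutants. In those of the mutants *acly-2* was at 61.0, *nduf-2.2* at 36.1 and *nxf-2* at 57.3 CPM, and the interval of each overlapped that of the mutant somatic cells. In those of Wild Type the 3 copies were at 21.1, 5.29 and 19.4 CPM, each above its level in Wild Type somatic cells by point value. Of the paralogs *gas-1* was at 129 and 71 CPM in free RNA of Wild Type and mutants, against 111.5 and 74.3 in somatic cells. *acly-1* was at 19.4 and 22.4 CPM, against 26.6 and 16.8. *nxf-1* was at 28.2 and 31.1 CPM, against 15.3 and 25.2. Since the levels in mutant cells were not above free RNA beyond counting error, a UMI of a copy in a single mutant cell does not show that this cell transcribed it, and how much of each level in cells is free RNA was not tested. Taking the free RNA profile out at 10% of each library's UMIs gave ratios of 4.23 for *acly-2*, 28.1 for *nduf-2.2* and 10.7 for *nxf-2*.

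*acly-2* and *acly-1* encode ATP-citrate lyase, which cleaves citrate in the cytosol to the acetyl-CoA used for fatty acid synthesis. *acly-2* (WBGene00007150) lies on chromosome V, 13116488 to 13120131 on the plus strand of WBcel235, with 6 exons and 1099 codons, and *acly-1* (WBGene00016995) on chromosome X, 1479542 to 1484087 on the plus strand, with 8 exons and 1106 codons. No 3' UTR is annotated for *acly-1*, and 91 bases are for *acly-2*, so tags that fall past the annotated end of *acly-1* may not have been counted, in either library. *acly-2* had 12 UMIs in Wild Type somatic cells and 35 in the mutants, from 12.28 CPM (6.34 to 21.4) to 49.1 (34.2 to 68.2), a ratio of 4.0 (2.03 to 8.46). *acly-1* had 26 UMIs and 12, from 26.6 CPM (17.4 to 39.0) to 16.8 (8.69 to 29.4), a ratio of 0.632 whose interval includes 1 (0.291 to 1.30). The larger member of the pair was thus *acly-1* in Wild Type and *acly-2* in the mutants by point value. *acly-2* gave 31.6% of the pair's UMIs in Wild Type (12 of 38, 17.5 to 48.7) and 74.5% in the mutants (35 of 47, 59.7 to 86.1), with an odds ratio of 6.32 (2.23 to 18.2). Such a share does not depend on how the libraries are scaled. The pair as a whole was 1.69-fold higher in the mutants (1.08 to 2.67).

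The Wild Type level of *acly-2* came almost entirely from 1 cell class. Hypodermis-like cells, named from 14 enriched markers such as *dpy-7* and *lin-26* and led by cuticle genes such as *sqt-3* and *dpy-2*, held 11 of the 12 Wild Type somatic UMIs of *acly-2*, spread over 6 of 21 cells with at most 4 in a cell. In these cells *acly-2* was at 38.4 CPM in Wild Type (19.1 to 68.6) and 37.7 in the mutants (10.3 to 96.5, 4 UMIs), and its share of the pair was 52.4% (11 of 21) and 50% (4 of 8), an odds ratio of 0.909 (0.130 to 6.36). Somatic cells outside this class had 1 Wild Type UMI and 31 mutant UMIs (1.45 and 51.1 CPM), and the *acly-2* share there was 5.88% (1 of 17) and 79.5% (31 of 39). The 21 Wild Type hypodermis-like cells included 6 barcodes with more than 10000 UMIs, which carried 6 of the 11 UMIs, and their median was 6196 UMIs against 671 in the 87 mutant cells. Whether the ratio in hypodermis-like cells differs from that elsewhere was not tested, because cells of 1 library are not replicates, and the classes were compared after their values were seen.

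*nduf-2.2* and *gas-1* both encode a subunit of mitochondrial complex I. Complex I is the enzyme through which the electrons of NADH enter the respiratory chain. *nduf-2.2* (WBGene00006463) lies on chromosome III, 6465222 to 6467206 on the plus strand, with 8 exons, 474 codons and a 3' UTR of 63 bases. *gas-1* (WBGene00001520), known from mutants hypersensitive to volatile anaesthetics, lies on chromosome X, 15586786 to 15590397 on the minus strand, with 6 exons, 482 codons and 233 bases. *nduf-2.2* was the copy with the lowest Wild Type level, 2 UMIs in 215 somatic cells, and had 33 in the mutants, from 2.05 CPM (0.248 to 7.39) to 46.3 (31.8 to 65.0), a ratio of 22.6 (5.78 to 194). The width of that interval comes from the 2 UMIs, and 1 of them was on a barcode that both libraries hold as a cell, without which the ratio was 43.8. *gas-1* was the most abundant of the 6 genes in both genotypes, with 109 UMIs and 53, from 111.5 CPM (91.6 to 135) to 74.3 (55.7 to 97.2), a ratio of 0.666 (0.470 to 0.933). *nduf-2.2* supplied 1.80% of the pair in Wild Type (2 of 111, 0.219 to 6.36) and 38.4% in the mutants (33 of 86, 28.1 to 49.5), with an odds ratio of 33.9 (8.03 to 298). The summed level of the pair was 114 and 121 CPM, a ratio of 1.06 (0.792 to 1.42), so here the makeup of the pair differed between the libraries while its sum did not differ beyond counting error.

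Of the 41 UMIs of *gas-1* in Wild Type hypodermis-like cells 15 came from 1 cell and 36 from the 6 deepest barcodes, and the mutants had 5 there, a ratio of 0.329. Outside hypodermis-like cells the *gas-1* ratio was 0.803, with an interval that includes 1 (0.543 to 1.18). *nduf-2.2* had no UMI in hypodermis-like cells of Wild Type and 2 in those of the mutants.

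*nxf-1* and *nxf-2* belong to the NXF family of nuclear RNA export factors. *nxf-1* is the general receptor that carries mRNA through the nuclear pore, and in Drosophila a protein named Nxf2 takes part in silencing transposons with the piRNA pathway. Both genes lie on the minus strand of chromosome V, *nxf-2* (WBGene00003835) at 14416067 to 14417835 with 7 exons, 405 codons and a 3' UTR of 223 bases, and *nxf-1* (WBGene00003834) at 14411649 to 14415014 with 11 exons, 609 codons and 972 bases. *nxf-2* is upstream of *nxf-1*, with a gap of 1053 bases. *nxf-2* had 7 UMIs in Wild Type somatic cells and 44 in the mutants, from 7.16 CPM (2.88 to 14.8) to 61.7 (44.8 to 82.8), a ratio of 8.61 (3.85 to 22.7), and was the most abundant of the 3 copies in the mutants. *nxf-1* had 15 UMIs and 18, from 15.3 CPM (8.59 to 25.3) to 25.2 (15 to 39.9), a ratio of 1.64 (0.783 to 3.5). *nxf-2* made up 31.8% of the pair in Wild Type (7 of 22, 13.9 to 54.9) and 71% in the mutants (44 of 62, 58.1 to 81.8), with an odds ratio of 5.24 (1.64 to 17.6). This pair differed most in its sum, 3.86-fold higher in the mutants (2.34 to 6.60). Of the 7 Wild Type UMIs 5 came from barcodes with more than 10000 UMIs, and without those barcodes the *nxf-2* ratio was 15.7 and the Wild Type share 20% (2 of 10).

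**Figure D2:**
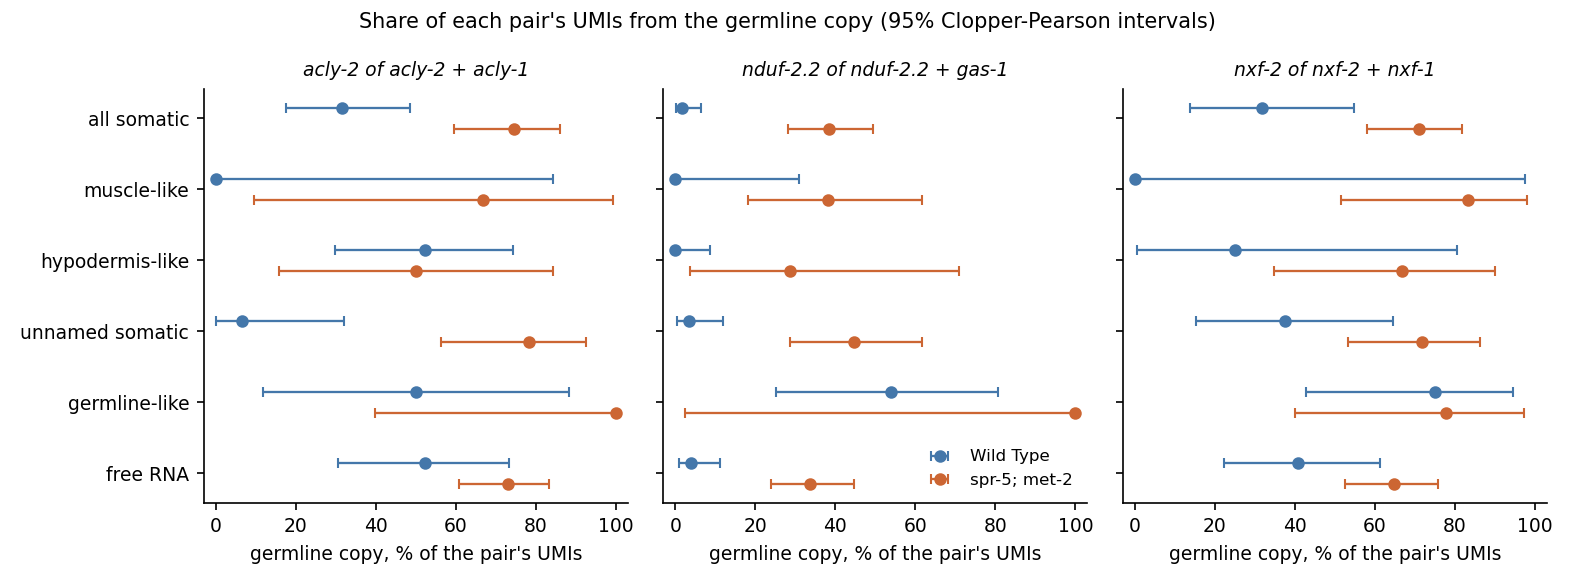
Share of each pair's UMIs that came from the germline copy (horizontal axis, percent), by cell class and genotype, with 95% Clopper-Pearson intervals. In all somatic cells the shares were 31.6%, 1.80% and 31.8% in Wild Type and 74.5%, 38.4% and 71% in the mutants, and in hypodermis-like cells the *acly-2* share was 52.4% and 50%.

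Genes on the opposite strand overlap 4 of the members, and whether the counting used strand was not given in the sources used here. *max-1* overlaps *acly-2* and had 13 UMIs in Wild Type and 57 in mutant somatic cells. *C15H11.11* overlaps *nxf-2* with 1 and 4 UMIs, *K09A9.6* overlaps *gas-1* with 18 and 26, and *gnrr-2* overlaps *nxf-1* with 2 and 1. *set-31*, on the other strand 68 bases from *nxf-2*, had 17 and 52 UMIs. How reads that match both members of a pair were counted was not given either.

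Cell by cell the germline copy and its paralog were rarely seen together in mutant somatic cells. Among 665 mutant somatic cells 32 had a UMI of *acly-2* alone, 12 of *acly-1* alone and 0 of both. For *nduf-2.2* and *gas-1* these numbers were 29, 48 and 3, and for *nxf-2* and *nxf-1* 42, 17 and 1. In the deeper Wild Type somatic cells the paralog was also seen in 2 of the 7 cells with *acly-2*, 2 of the 2 with *nduf-2.2* and 2 of the 6 with *nxf-2*, and in Wild Type germline-like cells in 1 of 3, 2 of 4 and 1 of 4. At a median of 729 UMIs per mutant somatic cell most such cells with a UMI of any of these genes had exactly 1, between 90.6% and 100% of them for the 6 genes, so that transcripts of both genes in a cell would seldom be captured. At least 1 of the 3 copies was seen in 98 mutant somatic cells (14.7%, 12.13 to 17.7), 89 with 1 copy, 9 with 2 and 0 with all 3. Wild Type had 15 such cells of 215 (6.98%, 3.96 to 11.2), each with a single copy, at a median depth of 2078 UMIs. With 500 UMIs drawn from every cell, which left out 153 mutant cells and no Wild Type cell, *acly-2* was seen in 2.34% of 512 mutant cells, *nduf-2.2* in 3.13% and *nxf-2* in 1.56%, and each in 0 of 215 Wild Type cells, which allows a share of cells with a UMI of up to 1.40% at a floor of 3 cells, or up to 1.70% by the exact interval. A second draw gave 2.93%, 2.34% and 3.32% in the mutants, with 1 Wild Type cell for *nxf-2*. These thinned shares rest on 8 to 17 cells each. *gas-1* was seen in 5.12% and 3.52% in the first draw.

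Across mutant somatic cells UMIs of the copies were not limited to a single cluster. Free RNA of the mutants held the copies at similar levels, so their UMIs in a cluster do not show that its cells transcribed them. In the 12 mutant somatic clusters with at least 15 cells *nduf-2.2* had a UMI in 12, between 15.7 and 162 CPM, and *acly-2* and *nxf-2* in 10 each, between 0 and 143 CPM and between 0 and 106 CPM. The level over all mutant somatic cells lay within the interval of the cluster in 12 of 12 clusters for *nduf-2.2* and *nxf-2* and in 11 of 12 for *acly-2*. The highest *acly-2* level was in ciliated neuron-like cells, with 5 UMIs (143 CPM, 46.4 to 333). *gas-1* also had a UMI in 12 of 12, between 47.1 and 171 CPM, while *acly-1* and *nxf-1* had one in 6 and 9. Body wall muscle-like cells, named from sarcomere genes such as *unc-54* and *pat-10*, had no UMI of any copy in 41 Wild Type cells, and in 126 mutant cells they had 8 of *nduf-2.2* (65.2 CPM), 10 of *nxf-2* (81.5 CPM) and 2 of *acly-2* (16.3 CPM). Against a floor of 3 UMIs in Wild Type, *nduf-2.2* was at least 1.69-fold higher and *nxf-2* at least 2.11-fold higher there, and the lower limits of the exact intervals of these ratios were 1.08 and 1.42. *gas-1* in the same cells had 10 and 13 UMIs (129 and 106 CPM). *nxf-2* in hypodermis-like cells had 1 Wild Type UMI and 8 mutant UMIs (3.49 and 75.4 CPM), a ratio of 21.6 (2.90 to 959). The classes named other mesoderm-like, intestine-like, neuron-like and ciliated neuron-like held 1 or 2 Wild Type cells each and could not be compared. In the unnamed somatic clusters, 148 Wild Type and 316 mutant cells, *acly-2* had 1 UMI and 18, *nduf-2.2* 2 and 17, and *nxf-2* 6 and 23. The intervals of the ratio lay above 1 for all 3, a count that the choice of the genes favours, and the share of all genes was not computed for these cells. Of the 6 Wild Type UMIs of *nxf-2* 5 were in 1 of these clusters, where the mutants had 1 (ratio 1.59, 0.0336 to 14.2).

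**Figure D3:**
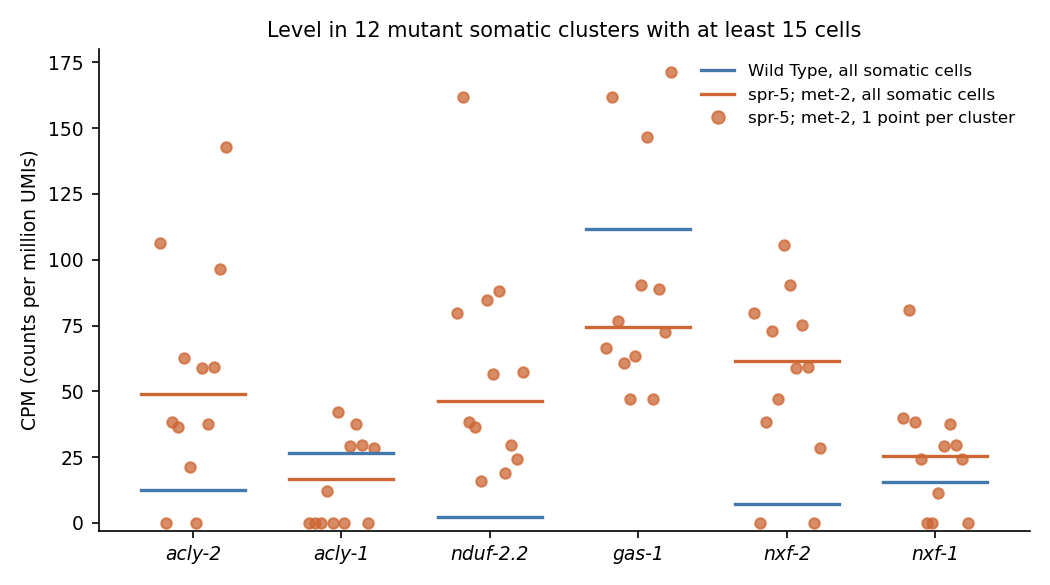
Level of each gene in CPM (vertical axis) in the 12 mutant somatic clusters with at least 15 cells, 1 point per cluster in cluster order, with lines for the level over all somatic cells of each genotype. *nduf-2.2* and *gas-1* are above 0 in all 12, and single clusters rest on few UMIs, such as 5 for the highest *acly-2* point at 143 CPM.

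In germline-like cells the sum of the copies did not differ between the genotypes beyond counting error. The 4 Wild Type cells had 3 UMIs of *acly-2*, 7 of *nduf-2.2* and 9 of *nxf-2*, and the 21 mutant cells 4, 1 and 7, in 35940 and 18813 UMIs. Summed, the copies were at 529 and 638 CPM (ratio 1.21, 0.534 to 2.62). *nduf-2.2* was lower by point value, at 195 and 53.2 CPM, with a ratio of 0.273 that rests on 1 mutant UMI. All 4 Wild Type cells had at least 2 of the copies and 3 had all 3, while 8 of 21 mutant cells had any (38.1%, 18.1 to 61.6), at a median depth of 4871.5 and 527 UMIs. The paralogs had 12 and 2 UMIs there. The germline markers had 28 and 36 UMIs in the same cells, 779 and 1914 CPM. Of these UMIs *glh-1* gave 1 and 12, and the other markers summed to 27 and 24 (ratio 1.70, 0.938 to 3.06). By point value 5 of the 9 markers were higher in the mutant cells and 3 lower. By share *acly-2* made up 50% of its pair in the Wild Type cells (3 of 6) and 100% in the mutants (4 of 4), *nduf-2.2* 53.8% (7 of 13) and 100% (1 of 1), and *nxf-2* 75% (9 of 12) and 77.8% (7 of 9). The sum of *nduf-2.2* and *gas-1* was lower in the mutant cells (ratio 0.147, 0.00346 to 0.978), which rests on that 1 UMI.

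Other genes of the same pathways lay on both sides of a ratio of 1. Of 19 citrate and fatty acid synthesis genes listed, 15 had at least 20 UMIs, of which 3 were more than 2-fold higher and 2 more than 2-fold lower (20.9% and 5.5% over all genes), 6 intervals lay above 1 and 4 below (33.5% and 13.7%), with a median log2 ratio of -0.02 beside 0.27 over all genes, and their summed level was 2344 and 2326 CPM. *fasn-1*, the fatty acid synthase, was at 469 and 632 CPM (1.35), *cts-1*, the citrate synthase, at 429 and 393 (0.916), *idh-1*, an isocitrate dehydrogenase, at 446 and 286 (0.641) and *mdh-1*, a malate dehydrogenase, at 237 and 314 (1.32). The extremes were *K11H3.3*, with 11 and 44 UMIs (5.48, 2.79 to 11.8), and the fatty acid elongase *elo-2*, with 24 and 7 (0.40, 0.145 to 0.956).

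Among 33 other complex I genes, 5 were more than 2-fold higher and 1 more than 2-fold lower, beside 20.9% and 5.5% over all genes, 8 intervals lay above 1 and 4 below, beside 33.5% and 13.7%, and the median log2 ratio was 0.04. Their summed level was 8391 and 11959 CPM (1.43, 1.38 to 1.47). The 7 subunits encoded by mitochondrial DNA summed to 4049 and 7753 CPM (1.91, 1.84 to 2.0) and held the 5 genes past 2-fold higher, while the 26 nuclear ones summed to 4342 and 4206 CPM (0.969, 0.924 to 1.02), with none past 2-fold higher. Among the mitochondrial ones *nduo-1* was at 300 and 1270 CPM (4.24), *nduo-2* at 126 and 540 (4.29), *nduo-4* at 396 and 1179 (2.98) and *nduo-6* at 2841 and 3839 (1.35). Nuclear *nuo-3* was at 730 and 704 CPM (0.965) and *C18E9.4* the lowest at 94.1 and 44.9 (0.477). The mutant library was also the shallower one, so depth and genotype cannot be told apart for the mitochondrial subunits. The part of depth in these ratios was not tested.

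Of 19 mRNA export genes listed 17 were found, and none was past 2-fold in either direction (20.9% and 5.5% over all genes), while 4 intervals lay above 1 and 4 below it (33.5% and 13.7%). They had a median log2 ratio of -0.12 and a summed level of 4098 and 3900 CPM. The export adaptor *aly-3* was at 438 and 545 CPM (1.25), the helicase *hel-1* at 884 and 697 (0.788), *mag-1* of the exon junction complex at 506 and 369 (0.729) and its partner *rnp-4* at 527 and 614 (1.17). The cap-binding subunit *ncbp-1* was the highest at 1.32 and *thoc-3* of the THO complex the lowest at 0.623.

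Among the study's 25 listed genes the copies were not the extremes as a group. Ranked by ratio in somatic cells *nduf-2.2* stood at 3, *nxf-2* at 13 and *acly-2* at 20 of 25. *ani-2*, a germline anillin with 1 and 54 UMIs, was first, and the nuclease gene *exo-1*, with 17 and 18, was last. Of the 22 others 20 had at least 20 UMIs and 17 of these were more than 2-fold higher, with a median log2 ratio of 3.02, against 2.0, 4.5 and 3.11 for *acly-2*, *nduf-2.2* and *nxf-2*. That list was chosen by the study on these samples.

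Likeness was measured as Pearson's r of log2(CPM + 10) over 18 groups of cluster and genotype with at least 15 cells, 5 of Wild Type and 13 of the mutants, among 4904 genes with at least 50 UMIs. The 13 mutant groups include the germline-like cluster. The groups come from 2 libraries and differ in depth, so r is a description. The genes most like *acly-2* were *cbd-1* (0.88), which encodes a chitin-binding protein of the eggshell, *brap-2* (0.88) and *F22D6.9* (0.85). *C55C3.3* (0.85), *F54F7.6* (0.83) and *immt-2* (0.82), a gene for a mitochondrial inner membrane protein, were most like *nduf-2.2*, and *gei-14* (0.88), the maternal polarity gene *mex-5* (0.87) and *C29A12.1* (0.84) most like *nxf-2*. In somatic cells *cbd-1* had 10 and 64 UMIs, *immt-2* 15 and 58 and *mex-5* 4 and 55. Because the copies were chosen as higher in the mutants, a high r favours genes that are also higher there, so these counts are not independent evidence. *gei-14* is itself among the study's 25 listed genes.

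**Figure D4:**
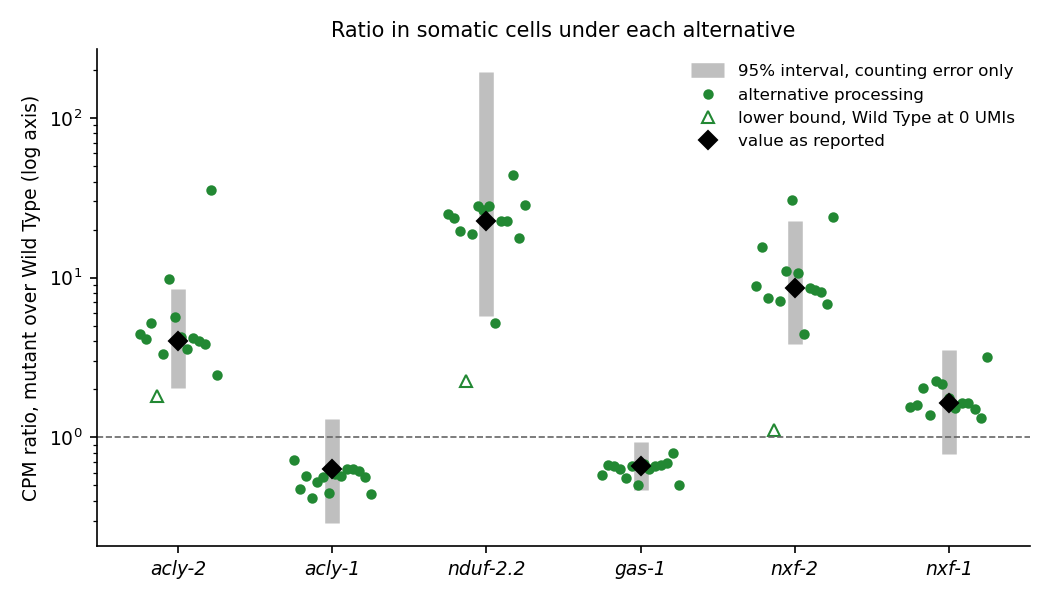
CPM ratio of each gene in somatic cells, mutant over Wild Type (log axis), as reported (diamonds, with 95% intervals in grey) and under each alternative processing (points, with open triangles for lower bounds). The 3 copies lie above 1 under every alternative that gave a value, between 1.12 and 43.8, and *acly-1* and *gas-1* below 1, between 0.420 and 0.803.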

How the data were processed

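Raw UMI counts of every barcode were deposited, from 10x 3' libraries of polyadenylated RNA that the authors had processed in Cell Ranger 3.0.2 (ce11 build), neither filtered nor normalized. They then used Seurat, with no version given in the sources used here. Aligner and annotation settings are also not given there. Here the deepest barcodes were kept as cells, 219 and 686 of them as the sample titles say. Counts were normalized to 10000 per cell and clustered in scanpy 1.11.5 (2000 variable genes, 20 components, 15 neighbours, Leiden resolution 1.0), without the genes of the study's list and the 6 genes. A cluster took a class name where at least 3 markers of that class, more than of any other, were enriched 2 times or more, and where these were also over 1.5 times the next class's number or at least 2 stood among the 10 leading genes. It stayed unnamed where another class had more markers among those 10, or where the median cell of either library had below 1/3 of the library's median UMIs and no marker was among them. This named 8 of 15 clusters. Of the unnamed, 1 with 4 enriched neuron markers (30 Wild Type and 90 mutant cells) and 1 with 3 (0 and 10 cells) had too many markers of a second class. The thresholds were set with these data known. Doublets were kept.

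UMIs were summed over cells and scaled to CPM. CPM values have exact Poisson intervals, shares Clopper-Pearson intervals and ratios exact conditional intervals, all at 95%, with a floor of 3 counts. With 1 library per genotype no test was run. UMIs of 1 library are independent molecules only up to capture, so intervals and floors cover counting error only. The steps were tested on simulated data. Coordinates and exons come from the Ensembl annotation of WBcel235, the assembly that ce11 names.

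The members and gene lists were chosen with earlier results of these data known. Genes named are the 6 members, *spr-5* and *met-2*, the 4 most abundant and the highest and lowest gene of each pathway list with at least 20 UMIs, and the 3 genes most like each copy. Marker genes, overlapping neighbours, *ani-2* and *exo-1* were named after their values were seen. Alternatives changed the cells kept, doublets, depth, scaling, weighting, free RNA, clustering and the gene filter. Those that left out hypodermis-like cells or shared barcodes, or pooled the 5 somatic clusters in which both genotypes had 15 or more cells, were chosen after seeing the data. Python 3.11.15, numpy 2.4.6, pandas 2.3.3, scipy 1.17.1 and matplotlib 3.10.9 were used.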

Additional observations from a re-analysis of the deposited data

Results flagged for a closer look

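*acly-2* and *acly-1* went the other way in hypodermis-like cells than in all somatic cells by point value. The mutant to Wild Type ratio there was 0.982 for *acly-2* and 1.08 for *acly-1*, and the difference from the somatic ratios of 4.0 and 0.632 was not tested.

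*nduf-2.2* had a ratio of 0.273 in germline-like cells, against 22.6 in somatic cells. It rests on 7 and 1 UMIs, and the difference was not tested.

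Barcodes with at most 200 UMIs, outside the cells of the report's main comparison, held all 3 germline copies at a higher level in the mutant library. The ratios were 2.88 for *acly-2*, 6.83 for *nduf-2.2* and 2.95 for *nxf-2*, each with an interval above 1. The copies were chosen as higher in mutant cells of this same library, so these ratios are not independent evidence. The share of all genes with such an interval was not computed for these barcodes. In the barcodes over 200 UMIs that were not taken as cells the ratios were 1.19 for *acly-2* (0.417 to 4.67) and 2.21 for *nxf-2* (0.703 to 11.2), with intervals that include 1, and 6.12 for *nduf-2.2* (1.03 to 248).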

How the results depend on the processing

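No paired analysis was possible because there is 1 library per genotype. Of 147 values under alternatives 132 stayed within the counting interval of the reported value, or within 1.5 times a count, 12 moved out of it, 3 were lower bounds only and 0 changed direction. With 500 UMIs drawn per cell Wild Type was at 0 for the copies, which left only lower bounds of 1.82 (*acly-2*), 2.24 (*nduf-2.2*) and 1.12 (*nxf-2*), no ratio for *nxf-1* and no odds ratios. The *acly-2* ratio was 9.81 with cells weighted equally and 35.3 without hypodermis-like cells, where the odds ratio of its pair was 62.0. The *nduf-2.2* ratio was 5.23 over all cells, germline-like cells included. The *nxf-2* ratio was 30.7 with the 5 somatic clusters that had at least 15 cells of each genotype weighted equally and 23.9 with their UMIs pooled. Within wide counting intervals, the *acly-2* ratio was 2.46 with UMIs pooled over those clusters, the *nxf-2* ratio 4.41 over all cells, and the odds ratios over all cells 8.20 for *nduf-2.2* and *gas-1* and 2.87 for *nxf-2* and *nxf-1*. Odds ratios ranged from 5.56 to 62.0 for the *acly* pair, 8.20 to 62.9 for *nduf-2.2* and *gas-1* and 2.87 to 14.2 for the *nxf* pair. Over all genes the number more than 2-fold higher, 1396, was 735 with 500 UMIs drawn and 644 at a minimum of 50 UMIs, and the number lower, 368, was 614 under the median of ratios. Intervals above 1, 2238 as reported, were 611 with 500 UMIs drawn, and intervals below 1, 913 as reported, were 356 with 500 UMIs drawn and 1520 under the median of ratios. Why these values moved was not tested. Scrublet called 10 Wild Type and 3 mutant cells doublets (4.57% and 0.437%), and with so few called in the mutants their removal says little. The Wild Type level of *nduf-2.2* rests on 2 UMIs.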
